A study of Mus musculus with 4 samples.

Results

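The unfolded protein response and the integrated stress response are described here through 40 genes, given as a fixed list of symbols and found by exact symbol among the 22609 gene symbols of each library. All 40 had enough reads to be tested. They were divided by their known roles into 5 sensors and lead transcription factors, 18 targets of ATF4 and CHOP, and 17 chaperone and degradation genes of the endoplasmic reticulum (ER) that ATF6 and XBP1 control. RNA was taken from the hippocampus of ovariectomized female mice of 2 genotypes, with 2 libraries each. FBN-ARO-KO+GCI mice lacked Cyp19a1, the gene for aromatase, in forebrain excitatory neurons, where the CaMKIIα promoter drives Cre, while other cells kept the gene. FLOX+GCI mice were their controls. Mice of both genotypes had been ovariectomized 1 week earlier, went through 20 min of global cerebral ischemia (GCI) by clipping both carotid arteries, and were sampled after 24 h of reperfusion. The mice of the study were 3 to 5 months old. Libraries from mice without ischemia were not analysed here, so each value below compares genotypes within the ischemic hippocampus and gives no response to ischemia. The design text says only that samples were run in duplicate, and neither it nor the methods say whether the libraries of a genotype came from separate or pooled mice, so that the p-values measure only the spread between these libraries, which may be technical.

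Gene counts totaled between 24333396 and 33076795 per library. For Cyp19a1 itself, 4 and 1 reads were counted in the FLOX+GCI libraries and 2 in each FBN-ARO-KO+GCI library, which does not check the deletion. Replicates differed by more than sampling noise (chi-square per degree of freedom 9.33 in FLOX+GCI and 11.0 in FBN-ARO-KO+GCI). Across 14004 genes, the log2 difference between genotypes went down as the GC content of the transcript went up (Spearman's rho -0.55). The FBN-ARO-KO+GCI libraries differed from each other in the same way (rho -0.48 for replicate 2 against replicate 1). For this reason, values from which the trend of every library with GC content and transcript length was removed are given beside those of the 40 genes. Markers of hippocampal excitatory neurons (Slc17a7, Camk2a, Prox1 and others, 7 in all) were present, with a summed level of 7373 to 7683 counts-per-million (CPM) in FLOX+GCI and 7526 to 7569 CPM in FBN-ARO-KO+GCI.

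When unfolded proteins gather in the ER, the kinase and nuclease IRE1 (Ern1), the kinase PERK (Eif2ak3) and the membrane-bound factor ATF6 are switched on. PERK phosphorylates eIF2α, as do other kinases in the wider integrated stress response, which lowers protein synthesis in general while ATF4 is made in larger amounts from its existing mRNA, and ATF4 then turns on CHOP (Ddit3) and genes for amino acid supply. ATF6 and the spliced form of XBP1 turn on chaperones and the machinery that returns misfolded proteins to the cytosol for degradation. Both arms are known to be engaged in neurons after ischemia and reperfusion. Counts per gene show neither phosphorylation of eIF2α, nor splicing of Xbp1, nor cleavage of ATF6.

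The arms are read through different DNA elements, which are shown here because the ERSE was common in the chaperone promoters and rare elsewhere. The promoter windows of RefSeq, from 250 bases before to 50 bases after a gene's start, covered 36 of the 40 genes, and each window was placed in the mouse genome build NCBIM37 (the same as mm9) by exact match. Both strands were searched for the ER stress response element ERSE (CCAAT and CCACG with any 9 bases between them), its variant ERSE-II (ATTGG and CCACG with 1 base between them), the unfolded protein response element UPRE (TGACGTGG) and the C/EBP-ATF response element CARE (TGATGNAA). No matches of different elements overlapped. The ERSE was found in 7 of the 11 chaperone windows and in 1 of the 4 degradation windows (Syvn1), against 0.119% of all 32851 windows. Hsp90b1 held it 2 times. These matches follow, each 5′ to 3′ on the strand of the gene with 5 bases on either side, the fixed bases of the element in capitals and the coordinates in NCBIM37.
Hspa5, chr2:34627540-34627568, plus strand: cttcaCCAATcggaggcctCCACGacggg
Hsp90b1, chr10:86168378-86168406, minus strand: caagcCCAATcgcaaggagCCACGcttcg
Hsp90b1, chr10:86168273-86168301, minus strand: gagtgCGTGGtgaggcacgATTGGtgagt
Calr, chr8:87370969-87370997, minus strand: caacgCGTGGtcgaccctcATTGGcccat
Canx, chr11:50139297-50139325, minus strand: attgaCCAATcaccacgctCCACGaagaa
Pdia6, chr12:17273292-17273320, plus strand: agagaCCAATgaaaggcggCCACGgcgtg
Dnajc3, chr14:119337044-119337072, plus strand: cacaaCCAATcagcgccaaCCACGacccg
Creld2, chr15:88649945-88649973, plus strand: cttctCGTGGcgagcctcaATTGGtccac
Syvn1, chr19:6046527-6046555, plus strand: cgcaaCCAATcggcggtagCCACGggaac

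The CARE was found in 5 windows of ATF4 and CHOP targets and in that of Herpud1, which also held an ERSE-II, against 3.97% of all windows for the CARE and 0.0365% for the ERSE-II. In Trib3 the match lay after the start site and is not printed. The matches before the start site show the element from either arm in Herpud1, a degradation gene, and the CARE alone in the others.
Nupr1, chr7:133769082-133769099, minus strand: ccagaTTgCATCAgacag
Chac1, chr2:119176780-119176797, plus strand: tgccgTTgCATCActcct
Vldlr, chr19:27291305-27291322, plus strand: aatagTTgCATCAgcgct
Asns, chr6:7643220-7643237, minus strand: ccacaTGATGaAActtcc
Herpud1, CARE, chr8:96910212-96910229, plus strand: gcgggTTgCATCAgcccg
Herpud1, ERSE-II, chr8:96910272-96910292, plus strand: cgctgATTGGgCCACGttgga
The UPRE was in none of the members' windows and in 0.676% of all windows. A match describes these letters only, and binding was not measured.

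**Figure D1:**
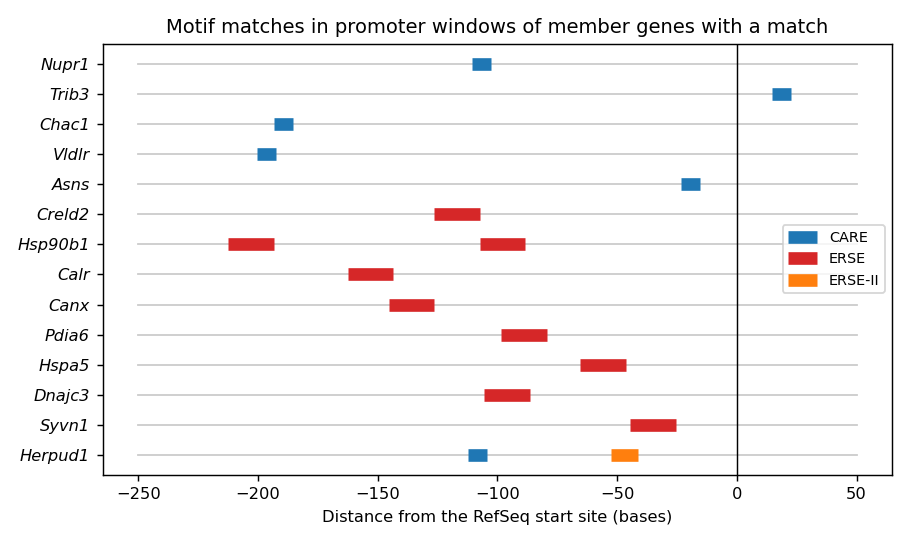
Position of each element in the promoter windows of the 14 genes with a match, in bases from the RefSeq start site (vertical line), on a horizontal line for each gene. Red marks the ERSE, orange the ERSE-II and blue the CARE, and the 9 ERSE matches all lie before the start site.

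The medians of the arms had opposite signs. With edgeR's quasi-likelihood test, none of the 40 genes had an adjusted p under 0.05 (0.0138% of all 14527 genes tested had), the lowest adjusted p being 0.238. At an unadjusted p under 0.05 there were 11 genes higher and 6 genes lower in FBN-ARO-KO+GCI. The 11 were 10 of the 17 chaperone and degradation genes and Xbp1, and the 6 were all among the 18 targets of ATF4 and CHOP. Over all genes tested, 16.5% passed that p, 8.72% higher and 7.82% lower. The median log2 fold change, FBN-ARO-KO+GCI minus FLOX+GCI, was 0.26 for the chaperone and degradation genes. It was -0.11 for the ATF4 and CHOP targets and -0.01 for all genes. The median GC content of these 2 arms was 48.6% and 55.6%. All tested genes with 45% to 50% GC had a median of 0.06, and those with 55% to 60% had -0.14. Without the GC and length trend, the medians of the arms were 0.19 and -0.10. DESeq2 gave an adjusted p to 22 of the 40 genes, and 5 of these were under 0.05, all chaperones and all higher (Hspa5, Pdia4, Dnajc3, Pdia3 and Calr). The 22 were 13 of the 17 chaperone and degradation genes, 6 of the 18 ATF4 and CHOP targets and 3 of the 5 sensors and lead factors. Members without an adjusted p could not be called, among them Nupr1 (DESeq2 unadjusted p = 0.00097), Atf5 (0.0064) and Dnajb9 (0.0178). Of the 5728 genes with an adjusted p from DESeq2, 3.75% were higher with an adjusted p under 0.05.

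**Figure D2:**
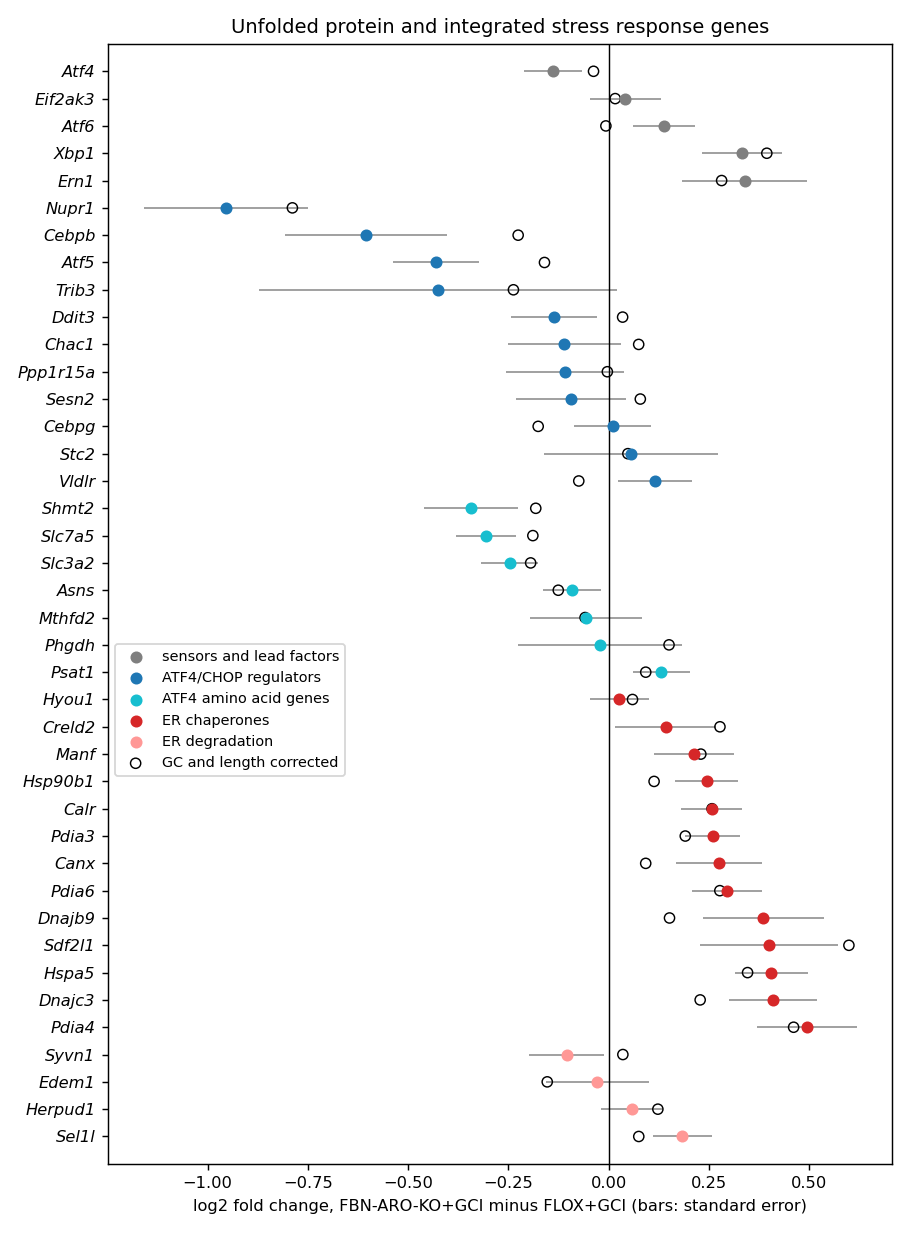
Log2 fold change (FBN-ARO-KO+GCI minus FLOX+GCI) of the 40 genes by role. Filled points are edgeR estimates with their standard error as bars, and open circles are estimates after removal of the trend over GC content and length. All 13 chaperones lie right of 0 in both, while 14 of the 18 ATF4 and CHOP targets lie left of 0 before the removal and 12 after it.

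Among the sensors and lead factors, Xbp1 was the only gene with an unadjusted p under 0.05 (16.5% of all genes tested had such a p). Xbp1, on chromosome 11 of mm9 from 5420662 to 5425896, encodes the factor that IRE1 activates by splicing. Its level was 91.3 and 105.0 CPM in FLOX+GCI and 115.6 and 131.7 CPM in FBN-ARO-KO+GCI. The groups did not overlap, which in this direction held for 25.9% of all genes tested. The log2 fold change was 0.33 (standard error 0.10, edgeR adjusted p = 0.245). Ern1, which encodes IRE1 itself, had a low level of 6.23 and 6.86 CPM in FLOX+GCI and 8.63 and 7.92 CPM in FBN-ARO-KO+GCI, again without overlap (log2 fold change 0.34, standard error 0.16, unadjusted p = 0.065). Atf6 had 115.9 and 122.5 CPM in FLOX+GCI and 126.2 and 136.3 CPM in FBN-ARO-KO+GCI, and its log2 difference of 0.14 was -0.0067 once the GC and length trend was removed. For Eif2ak3, the gene for PERK, the libraries lay within 34.9 and 36.9 CPM, with a log2 fold change of 0.04, and 0.02 without the trend. Removing the GC and length trend left 0.39 for Xbp1 and 0.28 for Ern1.

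Atf4 was the lead factor with the opposite sign. It lies on chromosome 15 from 80085614 to 80087970 and had 177.3 and 191.6 CPM in FLOX+GCI against 167 and 168.2 CPM in FBN-ARO-KO+GCI. Both FBN-ARO-KO+GCI libraries were below both FLOX+GCI libraries, by a log2 fold change of -0.14 (standard error 0.07, unadjusted p = 0.098), and -0.04 without the GC and length trend. Per kilobase of transcript, Atf4 was among the most abundant of the 40 genes in FLOX+GCI, at 107.0 CPM per kb, behind the chaperones Calr (193.8), Hsp90b1 (149.1) and Hspa5 (121.4), and Trib3 was the least abundant at 0.288 CPM per kb.

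Of the 11 ATF4 and CHOP targets that act as regulators, 3 had an unadjusted p under 0.05, all lower in FBN-ARO-KO+GCI. Over all genes tested, 7.82% were lower at that p. Without the GC and length trend, 2 of the 11 were lower at that p, Nupr1 and Cebpg (4.61% of all genes). Nupr1, a small stress-induced chromatin protein on chromosome 7 from 133766763 to 133770524, was covered by 193 and 244 reads in FLOX+GCI against 168 and 117 in the deeper FBN-ARO-KO+GCI libraries. In CPM this was 7.70 and 9.90 against 5.07 and 3.99. The groups were apart, and the mean was 8.80 ± 1.55 CPM in FLOX+GCI and 4.53 ± 0.759 CPM in FBN-ARO-KO+GCI (SD, n = 2 each). Its log2 fold change of -0.95 was the largest of the 40 genes in size (standard error 0.21, edgeR adjusted p = 0.238) and was -0.79 without the GC and length trend. With 1 library left out in turn it stayed between -1.14 and -0.76.

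Cebpb, which encodes a partner of CHOP and ATF4, had 4.19 and 4.10 CPM in FLOX+GCI and 2.72 and 2.73 CPM in FBN-ARO-KO+GCI. The replicates of each genotype lay close together and the groups did not overlap (log2 fold change -0.60, standard error 0.20). Atf5, for a factor that like ATF4 is made under eIF2α phosphorylation, had 27.1 and 30.8 CPM in FLOX+GCI and 21.2 and 21.7 CPM in FBN-ARO-KO+GCI, also apart (log2 fold change -0.43, standard error 0.11). These genes have the most GC-rich transcripts of the list, 67.2% for Cebpb and 61.7% for Atf5. Their log2 fold changes without the GC and length trend were -0.23 and -0.16, with an unadjusted p of 0.296 and 0.218.

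Ddit3, the gene for CHOP, the factor most often read as the mark of this arm, had 20.1 and 20.6 CPM in FLOX+GCI and 19.1 and 17.96 CPM in FBN-ARO-KO+GCI. The log2 fold change was -0.14 (standard error 0.11, unadjusted p = 0.246), and 0.035 without the GC and length trend, so that its sign depended on the processing. Ddit3 lies on chromosome 10 from 126727830 to 126733344 and overlaps Mars on the opposite strand. Whether counting used the strand is not stated, and reads of 13 of the 40 genes could in part belong to a gene on the other strand. Ppp1r15a (GADD34, which directs a phosphatase to eIF2α), Chac1 (which breaks down glutathione) and Sesn2 (a stress-induced inhibitor of mTORC1 signaling) had log2 fold changes between -0.11 and -0.09. Without the GC and length trend these were -0.003 for Ppp1r15a, 0.08 for Chac1 and 0.08 for Sesn2. Trib3, a pseudokinase that CHOP induces, had between 12 and 17 counts per library, and its log2 fold change of -0.43 (-0.24 without the trend) was smaller than its standard error of 0.45. Cebpg, Stc2 and Vldlr had values between 0.01 and 0.11, within or near their standard errors. Without the trend, Vldlr had -0.07 and Stc2 0.05, and Cebpg, whose GC content is 42.9%, had -0.18 with an unadjusted p of 0.039.

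Of the 7 genes of amino acid supply, 3 had an unadjusted p under 0.05, all lower (7.82% of all genes tested were lower at that p). Both chains of the large neutral amino acid transporter were lower in FBN-ARO-KO+GCI. Its light chain Slc7a5 had 97.5 and 102 CPM in FLOX+GCI against 78.4 and 83.0 CPM in FBN-ARO-KO+GCI (log2 fold change -0.31, standard error 0.08). Its heavy chain Slc3a2 had 151.5 and 153.7 CPM against 132.2 and 125.1 CPM (log2 fold change -0.25, standard error 0.07). For neither gene did the groups overlap, and both kept an unadjusted p under 0.05 without the GC and length trend, at log2 fold changes of -0.19 and -0.19. Shmt2, the mitochondrial enzyme that turns serine into glycine, had 21.9 and 24.1 CPM in FLOX+GCI and 19.2 and 17.1 CPM in FBN-ARO-KO+GCI (log2 fold change -0.34, standard error 0.12, and -0.18 without the trend). The enzymes of serine and asparagine synthesis had values nearer 0. Asns had a log2 fold change of -0.09 and Psat1 of 0.13, while Phgdh and Mthfd2 had -0.02 and -0.06, and the libraries of Phgdh ranged from 8.94 to 13.8 CPM within FLOX+GCI alone. Without the trend the values were -0.13 for Asns, 0.09 for Psat1, 0.15 for Phgdh and -0.06 for Mthfd2.

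**Figure D3:**
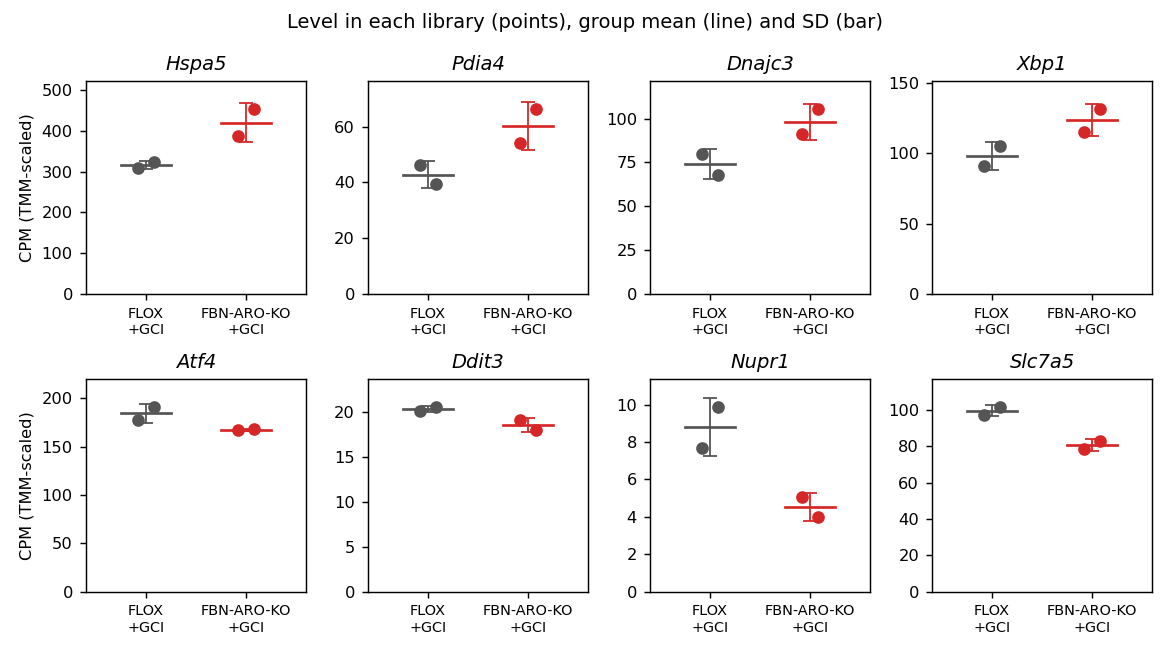
Level of 8 of the genes in each library in CPM scaled by TMM. Points are libraries, horizontal lines group means and bars SD (n = 2 each), with every axis starting at 0. Both FBN-ARO-KO+GCI libraries lie above both FLOX+GCI libraries for Hspa5, Pdia4, Dnajc3 and Xbp1 and below them for Atf4, Ddit3, Nupr1 and Slc7a5. All 8 genes drawn are without overlap, while 11 of the 40 genes overlapped. Over all genes tested, the groups lay apart for 25.9% (above) and 25.8% (below).

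All 13 ER chaperones had a log2 fold change above 0, from 0.03 for Hyou1 to 0.49 for Pdia4. Of these, 9 had an unadjusted p under 0.05, while 8.72% of all genes tested were higher at that p. In 11 of the chaperones, both FBN-ARO-KO+GCI libraries were above both FLOX+GCI libraries. Over all genes tested, this held for 25.9%, and the reverse for 25.8%. The 13 genes together summed to 2286 and 2252 CPM in FLOX+GCI and 2574 and 2938 CPM in FBN-ARO-KO+GCI, a ratio of 1.21. Hspa5 encodes BiP, the main ER chaperone and the sensor-bound brake of the response, on chromosome 2 from 34627490 to 34632051. Its reads numbered 7774 and 7986 in FLOX+GCI against 12806 and 13305 in FBN-ARO-KO+GCI, or 310.2 and 324 CPM against 386.3 and 454.2 CPM. The difference between the group means exceeded the spread of either group (log2 fold change 0.41, standard error 0.09, edgeR adjusted p = 0.238, DESeq2 adjusted p = 0.00364). It was 0.35 without the GC and length trend. The FBN-ARO-KO+GCI replicates of Hspa5 lay further apart than the nearest libraries of the 2 groups.

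The protein disulfide isomerases, which form and rearrange disulfide bonds, followed. Pdia4, on chromosome 6 from 47746141 to 47763511, had 46.3 and 39.4 CPM in FLOX+GCI and 54.3 and 66.4 CPM in FBN-ARO-KO+GCI. The log2 fold change of 0.49 (standard error 0.12) was the largest among the chaperones and was 0.46 without the GC and length trend. Pdia3 had 259.5 and 257.5 CPM against 300.7 and 318.3 CPM (log2 fold change 0.26, standard error 0.07). Pdia6 had 132.9 and 142.2 CPM against 158.3 and 179.3 CPM (log2 fold change 0.30, standard error 0.09). None of these 3 genes had overlapping groups, and without the trend Pdia3 had 0.19 and Pdia6 0.28.

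The lectin chaperones of the calnexin cycle, which hold glycoproteins while they fold, were at high levels. Calr had 426.8 and 419.9 CPM in FLOX+GCI and 480.3 and 532.1 CPM in FBN-ARO-KO+GCI (log2 fold change 0.26, standard error 0.08, and the same 0.26 without the GC and length trend). Canx had 378.3 and 345.6 CPM against 393.3 and 482.8 CPM, with a difference between FBN-ARO-KO+GCI replicates larger than that between the nearest libraries of the 2 groups. Among the chaperones without overlap, this also held for Hspa5, Hsp90b1, Pdia4, Pdia6, Dnajb9, Dnajc3, Sdf2l1 and Manf, but not for Pdia3 and Calr. The log2 fold change of Canx, 0.28, was 0.09 without the trend, at a GC content of 42.3%. Hsp90b1, the ER member of the HSP90 family (GRP94), had 419 and 423.5 CPM against 470.6 and 528 CPM (log2 fold change 0.25, standard error 0.08, and 0.11 without the trend).

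Among the co-chaperones that drive BiP, Dnajc3 (p58IPK) had 80.1 and 67.9 CPM in FLOX+GCI and 91.1 and 105.6 CPM in FBN-ARO-KO+GCI (log2 fold change 0.41, standard error 0.11). Dnajb9 (ERdj4) had 33.04 and 27.9 CPM against 34.4 and 45.3 CPM (log2 fold change 0.39, standard error 0.15). Without the GC and length trend these values were 0.23 and 0.15. Sdf2l1, which works with BiP and its J proteins, had 8.98 and 8.48 CPM against 9.90 and 13.2 CPM, and its log2 fold change went from 0.40 (unadjusted p = 0.052) to 0.60 (unadjusted p = 0.020) when the trend was removed, at a GC content of 56.7%. Manf, a secreted ER-resident neurotrophic protein, had 39.4 and 40.4 CPM against 42.8 and 49.7 CPM (log2 fold change 0.21, unadjusted p = 0.070, and 0.23 without the trend). Creld2 (0.14) and Hyou1 (0.03), the latter a large HSP70-like nucleotide exchange factor of BiP, had overlapping groups, with 0.28 and 0.06 without the trend.

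The 4 genes of ER-associated degradation had values nearer 0, apart from Sel1l. Sel1l, which scaffolds the ubiquitin ligase Syvn1 (HRD1), had 226.2 and 229.9 CPM in FLOX+GCI and 247.7 and 270.4 CPM in FBN-ARO-KO+GCI (log2 fold change 0.18, standard error 0.07, and 0.08 without the GC and length trend). Syvn1 itself had 63.9 and 56.4 CPM against 58.0 and 53.9 CPM (log2 fold change -0.10), with overlapping groups and a sign that turned to 0.036 without the trend. Herpud1, which joins this complex, and Edem1, which marks misfolded glycoproteins, had log2 fold changes of 0.06 and -0.03 (0.12 and -0.15 without the trend), and the libraries of Edem1 overlapped. The median of the 4 was 0.01, against 0.28 for the 13 chaperones.

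The chaperones with and without an ERSE overlapped in their values. The 7 with an ERSE in their window had log2 fold changes from 0.14 to 0.41, and the 4 whose window lacked it, Pdia3, Pdia4, Dnajb9 and Sdf2l1, from 0.26 to 0.49. Manf and Hyou1 had no window. Outside the list, 29 genes held an ERSE in a window, of which 11 were tested, with a median log2 fold change of -0.01. The only gene of these 11 with an unadjusted p under 0.05 was Ero1lb (16.5% of all genes tested had such a p). Among the 309 tested genes outside the list with a CARE, the median was 0.01.

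FBN-ARO-KO+GCI replicate 2 weighed on the chaperone values. For all 13 chaperones, and for 16 of the 17 chaperone and degradation genes, this library was above FBN-ARO-KO+GCI replicate 1. The same held for 10 of the 18 ATF4 and CHOP targets. Between the FLOX+GCI libraries, replicate 2 was above replicate 1 for 8 of the 17 genes. Relative to the FLOX+GCI mean, the median of the 17 genes was 0.16 on the log2 scale in replicate 1 and 0.33 in replicate 2. Without replicate 2, the median log2 fold change was 0.16, with 14 of the 17 genes above 0, and 4 genes had an unadjusted p under 0.05 instead of 10 (over all genes then tested, 2.47% were higher at that p). Without FBN-ARO-KO+GCI replicate 1 the count was 12 (10.6% of all genes), and without FLOX+GCI replicate 1 or 2 it was 8 (8.24%) or 7 (5.86%). The count of ATF4 and CHOP targets lower at that p was between 4 and 5 when any library was left out, against 6 with all libraries (7.64%, 7.06%, 8.25% and 3.17% of all genes were lower without FLOX+GCI replicate 1 or 2 or FBN-ARO-KO+GCI replicate 1 or 2). After removal of the GC and length trend, 8 chaperone genes were higher (5.35% of all genes) and 4 ATF4 and CHOP targets, Nupr1, Cebpg, Slc3a2 and Slc7a5, were lower at an unadjusted p under 0.05 (4.61% of all genes), with medians of 0.19 and -0.10.

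**Figure D4:**
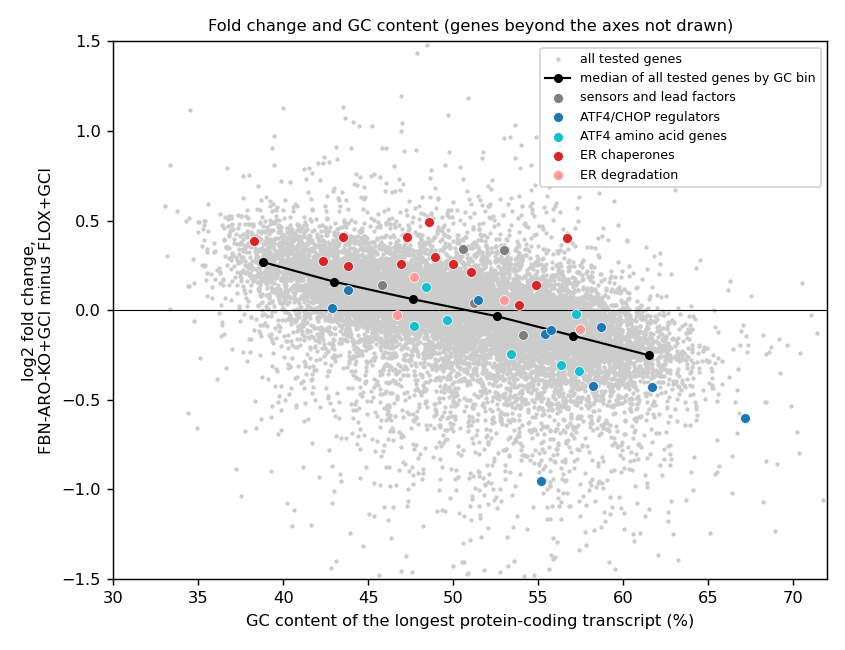
Log2 fold change (FBN-ARO-KO+GCI minus FLOX+GCI) against the GC content of the longest protein-coding transcript. Gray points are the tested genes with a GC content, the black line their median in 6 GC bins, and colored points the 40 genes by role. The bin medians go from 0.27 under 40% GC to -0.25 at 60% and above. The chaperones (median GC 48.6%) lie above the line, and the ATF4 and CHOP targets (median GC 55.6%) lie on both sides of it.

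The cell types of the hippocampus were not separated in these bulk libraries, and fewer cells of a type cannot be told apart from less RNA per cell. The summed level of 6 astrocyte markers was 4590 and 4878 CPM in FLOX+GCI and 4822 and 5503 CPM in FBN-ARO-KO+GCI. At an unadjusted p under 0.05, 1 of these markers was higher and 1 lower (8.72% and 7.82% of all genes tested). Oligodendrocyte markers (7) summed to between 3825 and 4462 CPM, microglia markers (6) to between 242.8 and 283.1 CPM and endothelial markers (6) to between 168.4 and 257.4 CPM. The 6 endothelial markers were all lower on average in FBN-ARO-KO+GCI, at a ratio of the sums of 0.865, but none had an unadjusted p under 0.05. Their sums overlapped, at 257.4 and 193.4 CPM in FLOX+GCI and 221.6 and 168.4 CPM in FBN-ARO-KO+GCI. Without FLOX+GCI replicate 1, 3 of the 6 had a log2 fold change above 0 and 3 below. Interneuron markers (6) were at a ratio of 0.937, with Sst and Npy lower at an unadjusted p under 0.05. Of these 6, 3 had a log2 fold change above 0 and 3 below. Choroid plexus markers (6) summed to between 42.4 and 61.8 CPM at a ratio of 0.822, with Ttr lower at an unadjusted p under 0.05 (log2 fold change -0.98). Of the 4 choroid plexus markers tested, Ttr alone was below 0 and 3 were above it, with a median of 0.15. Of the 5 erythroid markers the 4 hemoglobin genes were listed at 0 in every library, and Alas2 had 4.15 and 3.08 CPM in FLOX+GCI against 1.84 and 2.29 CPM in FBN-ARO-KO+GCI, a ratio of 0.571 (unadjusted p = 0.016). Markers of infiltrating leukocytes (6 found of 7) summed to between 3.59 and 4.78 CPM. The part of these shifts in the results was not tested.

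The wider pathway was described by lists of further genes grouped by function. Of 35 further ATF4 targets tested, 2 were higher and 3 lower at an unadjusted p under 0.05. Over all genes tested, 8.72% were higher and 7.82% lower at that p. The median log2 fold change of the 35 was -0.13, and 22 of them were below 0. When any 1 library was left out, the median lay between -0.12 and -0.09. Gpt2, a mitochondrial alanine aminotransferase, had 80.6 and 88.1 CPM in FLOX+GCI and 112.9 and 117.6 CPM in FBN-ARO-KO+GCI (log2 fold change 0.45, standard error 0.08, and 0.44 without the GC and length trend). Slc38a2, a neutral amino acid transporter, had 0.31, and 0.15 without the trend (unadjusted p = 0.160). DESeq2 gave an adjusted p to 22 of the further ATF4 targets. Only Gpt2 (0.00225) and Slc38a2 (0.0364) were under 0.05. Of all genes with an adjusted p from DESeq2, 3.75% were higher at that threshold. Lars, the leucyl-tRNA synthetase, had -0.31 (standard error 0.08, and -0.39 without the trend).

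Of 26 further genes of ER folding, 5 were higher and none lower at an unadjusted p under 0.05 (8.72% and 7.82% of all genes). But the median was -0.04 and 14 of the 26 were below 0. Without FBN-ARO-KO+GCI replicate 2 the median was -0.02. Without the GC and length trend 4 were higher and 2 lower (5.35% and 4.61% of all genes). Ero1lb, the oxidase that recharges protein disulfide isomerases, was covered by 128 and 134 reads in FLOX+GCI against 316 and 361 in FBN-ARO-KO+GCI. In CPM this was 5.11 and 5.44 against 9.53 and 12.3, a log2 fold change of 1.05 (standard error 0.18, edgeR adjusted p = 0.238) and of 0.89 without the GC and length trend. By p, Fkbp14 and Dnajc1 were next, at 0.42 and 0.31, or 0.28 and 0.23 without the trend. Of 20 further genes of ER-associated degradation, 12 had a log2 fold change above 0 and 8 below, with a median of 0.03. At an unadjusted p under 0.05, 3 were higher and none lower (8.72% and 7.82% of all genes). These were Edem3 (0.33), C78339 (Fam8a1, 0.41) and Selk (0.24). Without the trend they had 0.13, 0.31 and 0.18, and Selk alone of the list had an unadjusted p under 0.05 (5.35% of all genes were higher). The median of the list was 0.04 without FLOX+GCI replicate 2, 0.02 without FBN-ARO-KO+GCI replicate 2 and 0.01 without FBN-ARO-KO+GCI replicate 1.

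**Figure D5:**
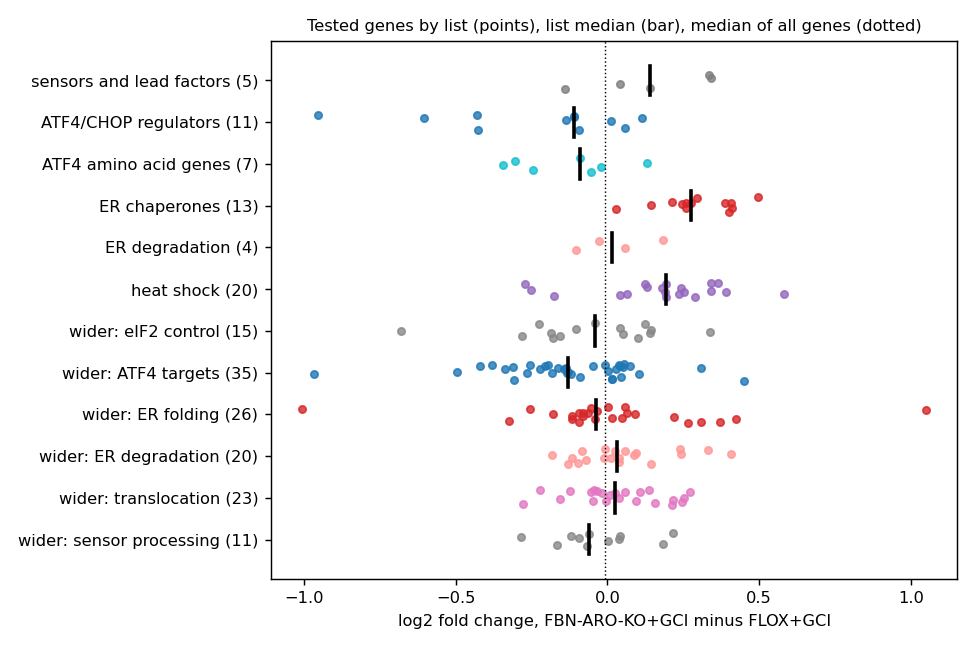
Log2 fold change (FBN-ARO-KO+GCI minus FLOX+GCI) of every tested gene in the lists, with the number tested in parentheses. Points are genes, bars list medians and the dotted line the median of all genes tested (-0.01). The 13 ER chaperones and the heat shock list lie to the right, with medians of 0.28 and 0.19, and the wider lists have medians between -0.13 and 0.03.

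Heat shock proteins outside the ER, most of them cytosolic and 2 of them mitochondrial (Hspd1 and Hspe1), were set beside the ER chaperones, since HSF1 is the factor best known to control them. Of 20 heat shock proteins and co-chaperones, 10 were higher and none lower at an unadjusted p under 0.05 (8.72% and 7.82% of all genes). A log2 fold change above 0 was seen for 17, and the median of the 20 was 0.19. Their summed level was 3969 and 4057 CPM in FLOX+GCI and 4517 and 4637 CPM in FBN-ARO-KO+GCI, a ratio of 1.14 against 1.21 for the ER chaperones. The members with the smallest p were Chordc1 (0.58), Hspa4l (0.34) and Dnajb1 (0.29). Without the GC and length trend these had 0.35, 0.07 and 0.37. At that p 8 of the 20 were then higher (5.35% of all genes), with a median of 0.17. Without FBN-ARO-KO+GCI replicate 2, the median was 0.18, and the largest log2 fold change of the list was 0.40, against 0.58 with all libraries. DESeq2 gave an adjusted p to 14 of the 20, and 4 of these were under 0.05, all higher. They were Chordc1, Hspa4l, Hsph1 and Dnaja1, the last 2 named here for that reason after their values were seen. Of all genes with an adjusted p from DESeq2, 3.75% were higher at that threshold. The difference between the ER and the heat shock list was not tested.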

How the data were processed

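The RNA-Seq data are 50 bp single-end libraries. Per the labels, the authors aligned reads to mm9 with TopHat2 2.0.8b and counted them with HTSeq, and the study used DESeq with an adjusted p threshold of 0.05. The deposited values are raw counts per gene symbol, without normalization. Strand setting, annotation release and HTSeq version are not given in the sources used here. Reads aligned to several places (35.1% to 36.5% of alignments) and to no annotated gene (7.96% to 8.70%) stood in separate counter lines and were left out, so that genes with near-identical copies are undercounted.

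Groups came from the sample titles. The 14527 genes kept by filterByExpr (minimum count 10) entered the quasi-likelihood fit of edgeR 4.0.16 (R 4.3.3) after TMM normalization, with Benjamini-Hochberg adjustment over all of them. Standard errors were obtained as the size of the log2 fold change over the root of the F statistic. CPM is scaled by TMM. An exact two-sided permutation test of 2 against 2 libraries cannot give a p under 0.333, so the spread was estimated across genes. At this depth 3 counts correspond to 0.0907 to 0.123 CPM, counting error only. GC content and length were those of the longest protein-coding transcript of GENCODE M1, and their trend in each library was fitted with natural splines (5 degrees of freedom) and entered as an offset. Alternatives were DESeq2 1.42.0 (every gene with at least 1 count), RLE size factors, library totals, other filters, a replicate block, and the fits leaving out a library in turn. The procedure was tested on simulated data.

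All 40 genes are named. Values in every library were given for those with an unadjusted p under 0.05, for the sensors and lead factors, Ddit3 and Hspa5, and up to 3 genes with the smallest p were named from each wider list. The members and lists were chosen with earlier results of these data known, and counts at an unadjusted p were chosen after the data were examined.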

Additional observations from a re-analysis of the deposited data

How the results depend on the processing

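No member passed an adjusted p of 0.05 with RLE size factors, library totals, other filters on low counts or the GC and length correction. DESeq2 called 5 members, all chaperones, of the 22 to which it gave an adjusted p. It called 292 genes in all (215 higher, 3.75% of those with an adjusted p). Among them were 4 of the 14 heat shock genes and 2 of the 22 further ATF4 targets to which it gave an adjusted p. With every gene with at least 1 count, edgeR gave 5 calls over all genes. Leaving out 1 library gave 0 to 193 calls over all genes, 0 to 1 among the members and 0 to 1 among the ATF4 and CHOP targets (Nupr1, without FLOX+GCI replicate 1, adjusted p = 0.0239, where 0.946% of all genes were called lower), with medians of -0.16 to -0.12 for these targets and 0.16 to 0.32 for the chaperone and degradation genes, of which 4 to 12 were higher at an unadjusted p under 0.05. Without either FBN-ARO-KO+GCI library no gene was called by edgeR, at 2772 and 831 genes with an unadjusted p under 0.05.

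The replicate number as a block called 184 genes in all (42 higher, 0.289% of those tested, and 0.977% lower), 2 members, 1 of them an ATF4 and CHOP target (Nupr1, adjusted p = 0.0369) and 1 a chaperone (Hspa5, adjusted p = 0.0420). Same-numbered libraries share only a number in the labels, and their deviations from the group means correlated at 0.129. With the block and the GC and length correction, 3 ATF4 and CHOP targets were lower at an unadjusted p under 0.05 (5.77% of all genes) and no member was called.

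Signs turned for members near 0. With the GC and length correction, without and with the block, the log2 fold change was -0.0067 and -0.0063 for Atf6, 0.035 and 0.035 for Ddit3, -0.18 and -0.18 for Cebpg, 0.075 and 0.074 for Chac1, 0.079 and 0.081 for Sesn2, -0.074 and -0.075 for Vldlr, 0.15 and 0.18 for Phgdh, and 0.036 and 0.038 for Syvn1. With library totals it was -0.027 for Cebpg and -0.0098 for Hyou1, and with the block alone 0.0055 for Phgdh. With 1 library left out, values went from -0.079 to 0.094 for Cebpg, -0.30 to 0.058 for Ppp1r15a, -0.25 to 0.075 for Sesn2, -0.0028 to 0.22 for Vldlr, -0.075 to 0.17 for Stc2, -0.30 to 0.32 for Phgdh, -0.025 to 0.075 for Hyou1 and -0.15 to 0.087 for Edem1. The other 28 members kept their sign in every alternative. The cause of these changes was not tested.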

Other observations

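The machinery of protein entry into the ER had 5 of 23 tested genes higher and none lower in FBN-ARO-KO+GCI at an unadjusted p under 0.05. Over all genes tested, 8.72% were higher and 7.82% lower at that p. The median log2 fold change of the 23 was 0.03. Ssr3, a subunit of the translocon-associated protein complex, had 0.25, and Sec62 and Sec63, partners of the translocon, had 0.27 and 0.21. Without the GC and length trend these were 0.06, 0.09 and 0.02, and 1 gene of the list was higher at that p. The median was 0.01 without FLOX+GCI replicate 2 and 0.02 without FBN-ARO-KO+GCI replicate 2. In these fits the largest log2 fold change of the list was 0.23 and 0.21, against 0.27 with all libraries.

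Of 15 genes that control eIF2, only Nck1 had an unadjusted p under 0.05 (log2 fold change 0.34, and 0.06 without the GC and length trend). Over all genes tested, 16.5% had such a p in either direction. Eif2b2, a subunit of the exchange factor of eIF2, had -0.22 (-0.10 without the trend) and Eif4ebp1, which represses cap-dependent translation and is induced by ATF4, had -0.68 with a standard error of 0.32 (-0.46 without the trend). Of 11 tested genes that process or extend the sensors, Wfs1 was lower at an unadjusted p under 0.05 (-0.16, and -0.03 without the trend). No gene of these lists had an edgeR adjusted p under 0.05.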
